A study of Mus musculus with 199 samples.

Results

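The pre-cancerous RPC line was compared with the KP1 tumour line, both grown as spheroids and both profiled from laser-captured groups of 10 cells. The comparison takes every 10-cell library of the 2 spheroid cultures by label, 24 of RPC and 28 of KP1, out of 199 libraries in the series. RPC spheroids are explanted mouse pre-small-cell-lung-cancer cells labelled Rb1-/-Trp53-/-p130-/+Crebbp-/-. KP1 spheroids are explanted mouse small-cell lung cancer cells labelled Rb1-/-Trp53-/-. Loss of Rb1 and Trp53 is therefore common to both lines, and loss of Crebbp and of 1 copy of p130, which is encoded by Rbl2, is particular to the RPC label. Each line is a single line, and the labels give neither the number of cultures or animals behind the libraries nor a sex, age or strain. The p-values below therefore measure the spread between captures, which may be technical, and differences of genotype, of tumour stage, of line and of preparation cannot be told apart. For background the text also uses 20 KP1 spheroid pool-and-split controls (libraries of 10-cell size drawn from pooled material), 33 and 31 KP1 10-cell libraries from liver colonies in nude and F1 mice, and 1 bulk spheroid library each of KP1, KP2 (Rb1-/-Trp53-/-Ptch1+/lacz), KP3 (Rb1-/-Trp53-/-Axin2+/lacz) and KP5 (Rb1-/-Trp53-/- BAT-GAL). The bulk libraries were made from more RNA by another kit, with 1 library a line and no replicate.

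Small-cell lung cancer is a neuroendocrine tumour that in mice arises after loss of Rb1 and Trp53, often from pulmonary neuroendocrine cells, the sensory-secretory cells of the airway epithelium. Such cells are specified by basic helix-loop-helix transcription factors, of which Neurod1 marks a tumour subtype. They store peptides and amines in granules packed with granins, and they share exocytosis, cytoskeleton and cell-adhesion genes with neurons. Crebbp encodes CBP, a histone acetyltransferase that binds the cyclic-AMP response factor CREB and is mutated in a share of human small-cell lung cancers. Hox genes encode positional transcription factors that keep the record of a cell's place along the body axis.

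RPC libraries held 3485459 to 7557701 gene counts and KP1 libraries 3775173 to 5308745, with spike-in transcripts left out. After all libraries were thinned to the lowest of these totals, RPC libraries had 8000 to 12911 genes detected (median 10974.5) and KP1 libraries 6748 to 12922 (median 9762.5). Spike-in (ERCC) transcripts made up at least 0.1% of counts in 22 of the 24 RPC libraries but in 9 of the 28 KP1 libraries, so KP1 falls into 9 and 19 libraries on this technical measure. Tests were also run against either part of KP1 alone and against the pool-and-split controls, for the genes that passed the filter there. Markers of other cells had overlapping sums in the 2 lines: over 12 fibroblast and endothelial markers the summed level per library was 0 to 21.4 CPM in KP1 and 0.174 to 29.1 in RPC, over 14 leukocyte markers 0 to 139 and 0.132 to 159 CPM, and over 12 liver and blood markers 0 to 83.6 and 0 to 57.5 CPM. Ptprc, Lyz2 and Cd74 were at 0 in KP1, Adgre1, C1qb and Cd3e at 0 in both. Csf1r was the leading leukocyte marker, at means of 14.7 CPM in KP1 and 21.7 CPM in RPC, and the part of other cells in the results was not tested.

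Of 8600 genes tested, 882 were higher and 999 lower in RPC (edgeR quasi-likelihood F test, Benjamini-Hochberg adjusted p under 0.05). That is 21.9% of genes called, 10.3% higher and 11.6% lower, and these shares are the background for every count of list members below. With RLE in place of TMM scaling the split was 1131 higher and 826 lower, and the median log2 fold change over all genes moved from 0.01 to 0.16. Every RPC library lay above every KP1 library for 27 genes (0.314%) and below every KP1 library for 38 genes (0.442%). Pseudogenes (209 tested, 29 higher and 49 lower) and a stretch of chromosome 4 from 120161206 to 123936997 (24 further genes tested, 1 higher and 22 lower) were set aside, which left 8367 genes with 852 higher and 928 lower. Mycl, the Myc family member amplified in mouse models of this tumour, lies in that stretch. Fold changes are on the log2 scale as RPC minus KP1, a bracketed value with ± gives that change with its standard error, each adjusted p is the Benjamini-Hochberg value of the edgeR test, and levels are CPM, counts scaled to the same gene total in every library. In captures of 10 cells, fewer cells with a transcript and less transcript per cell cannot be told apart.

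Lineage genes were called in both directions, more often lower in RPC. Of 173 lineage genes kept, 57 passed the filter on low counts, and 10 were higher and 19 lower (median log2 fold change -0.32 over those tested, against 0.01 for all genes). A gene that passed the filter only through the line in which it is high had to differ, so these counts describe the lists and support no direction. Neuroendocrine transcription factors moved in both directions (5 higher and 6 lower of 18 tested), granule genes more often downward (5 lower and 1 higher of 14) and epithelial genes each way (4 lower and 3 higher of 8), and both called lung genes were lower.

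The neuroendocrine regulators differed in both directions. Neurod1, a neurogenic factor of the subtype that bears its name, had 2.25 to 467 CPM (median 80.1) in RPC libraries and 0 to 160 CPM (median 1.91) in KP1 libraries. It was higher in RPC (2.32 ± 0.61 (SE), adjusted p = 0.00313), with counts in all 24 RPC libraries, and the ranges of the lines overlapped. At a level of 10 CPM or more, Neurod1 was present in 22 of 24 RPC and 9 of 28 KP1 libraries, and in 7 of 20 pool-and-split controls. Most RPC captures and a minority of KP1 captures held the transcript at that level.

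Among the other regulators, Sox4 and Sox11, SoxC factors of newly formed neurons, were higher in RPC (3.37 ± 0.61, adjusted p = 1.96e-05, and 0.75 ± 0.23, adjusted p = 0.0119). Pou3f2, a neuronal POU-domain factor also called Brn2, had counts in 24 of 24 RPC and 3 of 28 KP1 libraries (5.05 ± 0.79 (SE), adjusted p = 8.45e-07). Sox1, a neural progenitor factor, had means of 52.4 CPM in RPC and 23 in KP1 (0.97 ± 0.31, adjusted p = 0.0177). Insm1, a zinc-finger factor of endocrine and neuroendocrine cells, was lower in RPC by a margin near the threshold (-1.13 ± 0.43 (SE), adjusted p = 0.049), lost in 4 of 14 alternatives, and St18, a related zinc-finger factor, likewise (-1.13 ± 0.40, adjusted p = 0.0327). Clearer were Nfib and Nfix, nuclear factor I proteins of which Nfib is a known driver of metastasis in this tumour, and Foxa2, a pioneer factor of foregut endoderm. Nfib had 19.7 to 406 CPM (median 154) in RPC and 138 to 1577 CPM (median 568) in KP1 (-1.97 ± 0.22 (SE), adjusted p = 6.09e-11). Foxa2 fell from a KP1 mean of 80.8 to an RPC mean of 11.2 CPM (-3.11 ± 0.44, adjusted p = 7.91e-08) and Nfix from 17.9 to 1.68 CPM (-3.83 ± 0.71, adjusted p = 2.76e-05). Nkx2-1, the lung and thyroid lineage factor, and Foxa1 did not pass the test (0.54 ± 0.38, adjusted p = 0.33, and -0.39 ± 0.30, adjusted p = 0.382). Rest, the repressor of neuronal genes, had counts in 5 of 24 RPC and 0 of 28 KP1 libraries and was not tested.

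Of the secretory cargo, 14 granins, peptides and amine enzymes were tested, of which 5 were lower in RPC, 1 was higher and 8 did not pass the test. Their median log2 fold change was -0.17, 0.01 with RLE scaling and 0.10 with DESeq2, so its sign turned with the setting; relative to the median of all genes it was -0.17, -0.15 and -0.08. Chga, chromogranin A, had 29.5 to 468 CPM (median 101) in RPC and 44.5 to 908 CPM (median 570) in KP1 (-2.38 ± 0.23 (SE), adjusted p = 1.23e-13). Calca, which encodes calcitonin and the peptide CGRP of pulmonary neuroendocrine cells, had 0 to 24.5 CPM (median 0.208) in RPC and 11.5 to 329 CPM (median 104) in KP1 (-5.44 ± 0.67 (SE), adjusted p = 1.11e-09). Pcsk1, the prohormone convertase that cleaves peptide precursors in granules, had 0 to 40.3 CPM (median 0.177) against 12.6 to 313 CPM (median 94.7) (-5.15 ± 0.70 (SE), adjusted p = 2.22e-08). Calca and Pcsk1 were thus near 0 in most RPC captures, with a few captures overlapping the low end of KP1, whereas Chga stayed detected in all 24. Chgb (chromogranin B) and Resp18, a granule protein, were also lower (-1.51 ± 0.35, adjusted p = 0.000947, and -2.95 ± 0.44, adjusted p = 3.16e-07). Scg2, secretogranin II, ran the other way, with counts in 22 of 24 RPC and 7 of 28 KP1 libraries, at 0 to 163 CPM (median 17) and 0 to 60.1 CPM (median 0) (3.46 ± 0.87 (SE), adjusted p = 0.00218). The carboxypeptidase Cpe and the decarboxylase Ddc, which makes amines, did not pass the test (0.12 ± 0.22, adjusted p = 0.756, and -0.05 ± 0.21, adjusted p = 0.899).

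Among amine enzymes below the filter, 3 are given that were detected in more libraries of one line, chosen after their values were seen. Th, tyrosine hydroxylase of catecholamine synthesis, had counts in 22 of 28 KP1 libraries (up to 161 CPM) and in 1 RPC library (3 counts), a KP1 over RPC ratio of 1247 (95% counting interval 427 to 6049). Tph1, the peripheral tryptophan hydroxylase of serotonin synthesis, had counts in 18 KP1 and 2 RPC libraries, a ratio of 1113 (95% counting interval 308 to 9190). Tph2, the neuronal form of that enzyme, had counts in 9 RPC libraries (up to 151 CPM) and in none of 28 in KP1, so its pooled RPC level was at least 477-fold higher, taking 3 counts over the group as the floor.

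The promoters of 4 of these cargo and neuronal genes are shown because CBP acts through CREB and the Crebbp label separates the lines. Sequences are RefSeq promoters on GRCm38.p6, 250 bases before to 50 after the RefSeq start site nearest the annotated start of the gene, read 5′ to 3′ on the gene's strand. Capitals mark exact matches on either strand to the cyclic-AMP response element TGACGTCA, the E-boxes CAGCTG and CAGATG, or TTCAGCACC, the first letters of the REST-binding element RE1. The response element and an E-box can share their end letters CA or TG.
Pcsk1: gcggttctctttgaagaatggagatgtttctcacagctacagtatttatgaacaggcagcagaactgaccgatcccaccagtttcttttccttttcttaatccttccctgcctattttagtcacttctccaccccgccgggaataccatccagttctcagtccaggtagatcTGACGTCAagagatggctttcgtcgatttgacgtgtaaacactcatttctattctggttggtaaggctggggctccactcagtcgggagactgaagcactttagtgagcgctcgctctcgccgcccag
Scg2: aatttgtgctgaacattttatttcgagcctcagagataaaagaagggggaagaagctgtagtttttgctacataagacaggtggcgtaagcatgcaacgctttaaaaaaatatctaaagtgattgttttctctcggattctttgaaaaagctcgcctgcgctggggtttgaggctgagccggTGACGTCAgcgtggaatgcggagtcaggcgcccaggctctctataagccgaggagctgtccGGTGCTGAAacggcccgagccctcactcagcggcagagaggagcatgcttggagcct
Chga: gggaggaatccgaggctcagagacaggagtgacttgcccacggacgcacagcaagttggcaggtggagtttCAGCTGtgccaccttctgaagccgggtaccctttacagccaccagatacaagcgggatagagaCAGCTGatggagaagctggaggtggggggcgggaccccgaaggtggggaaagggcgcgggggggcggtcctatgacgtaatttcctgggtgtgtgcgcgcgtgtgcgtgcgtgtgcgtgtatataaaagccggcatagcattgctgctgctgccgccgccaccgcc
Elavl2: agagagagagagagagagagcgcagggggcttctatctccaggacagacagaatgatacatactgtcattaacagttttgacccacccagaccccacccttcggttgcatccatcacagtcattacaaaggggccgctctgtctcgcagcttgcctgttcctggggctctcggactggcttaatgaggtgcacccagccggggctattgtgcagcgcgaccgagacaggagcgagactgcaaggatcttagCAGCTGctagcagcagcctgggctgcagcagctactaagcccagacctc
They lie at chr13:75089607-75089906, plus strand, at chr1:79439977-79440276, minus strand, at chr12:102554691-102554990, plus strand and at chr4:91399935-91400234, minus strand. The start site used for Elavl2 lies 801 bases inside the annotated gene, and those of the others within 94 bases of the annotated start. Pcsk1 and Scg2 both hold the full response element, and Pcsk1 was lower and Scg2 higher in RPC. Chga holds 2 copies of CAGCTG and Elavl2 holds 1. Of 6627 tested genes with a promoter entry, 3.91% hold the response element, against 3.95% of 659 genes higher in RPC and 3.33% of 720 lower. CAGCTG stands in 13.3% of tested genes, 15% of those higher and 14% of those lower, and CAGATG in 10.1%, 12.6% and 9.72%. Among 62 tested neuronal genes with an entry, CAGCTG stands in 29% and the response element in 6.45%, which is 18 and 4 promoters; CAGCTG stands in 1 of the 10 that were higher in RPC and in 3 of the 4 that were lower. Among 60 nuclear genes of the respiratory chain CAGCTG stands in 6.67% and the response element in 8.33%. The RE1 letters stand in 0.407% of tested genes, 0.303% of those higher, 0.556% of those lower and 3.23% of the tested neuronal genes, which is 2 promoters. Over all 16599 promoters matched, the response element stands in 2.4%, CAGCTG in 15.2%, the other E-box in 14.9% and the RE1 letters in 0.392%. A match is a description of the letters and names no binding site.

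Notch pathway members were few at this depth. Of 24 kept, 6 were tested and only Dtx1, a ubiquitin ligase that modulates Notch, was called (-2.62 ± 0.74 (SE), adjusted p = 0.00605), a call lost with limma-voom and with the replicate block. Hes6, which opposes Hes1, and Rbpj, the DNA-binding partner of cleaved Notch, did not pass the test (-0.18 ± 0.37, adjusted p = 0.781, and -0.27 ± 0.35, adjusted p = 0.63). Hes1, the Notch target, had counts in 6 RPC and 3 KP1 libraries, and Dll3, the inhibitory ligand of neuroendocrine tumours, in 15 and 25, and neither was tested. Dll4, an activating ligand picked after its values were seen, had counts in 24 of 28 KP1 libraries and none of 24 in RPC, at least 428-fold lower in RPC.

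The lung and epithelial genes Wfdc2, Sftpc and Krt18 were nearly absent from RPC. Wfdc2, a secreted protease inhibitor of airway epithelium (chr2:164562413-164568510, GRCm38), had 27.3 to 1080 CPM (median 374) in KP1 and a single count over the 24 RPC libraries. The ratio of counts pooled over a line and divided by its pooled gene total, KP1 over RPC, was 52167 (95% counting interval 9363 to 2060472), and edgeR gave an adjusted p of 7.89e-36. Sftpc, surfactant protein C of alveolar type II cells, had 2.08 to 242 CPM (median 47.9) in KP1 and counts in 1 RPC library (-9.87 ± 0.72 (SE), adjusted p = 2.84e-18). For both genes every RPC library lay below every KP1 library. The other alveolar and club markers did not accompany Sftpc: Sftpa1, Sftpb, Sftpd, Scgb1a1, Scgb3a2 and Cyp2f2 were at 0 in KP1, and over the 8 alveolar and club markers the summed level was 2.08 to 242 CPM in KP1 and 0 to 7.55 in RPC. Abca3, a lipid transporter of the same cells, and Lpcat1 did not pass the test (-1.17 ± 0.46, adjusted p = 0.0594, and 0.88 ± 0.40, adjusted p = 0.109).

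Krt18, a keratin of simple epithelia, had 5.31 to 364 CPM (median 153) in KP1 and counts in 6 of 24 RPC libraries, none above 3.49 CPM (-9.40 ± 0.65 (SE), adjusted p = 1.53e-19), with no overlap. Desmoplakin (Dsp) and claudin 3 (Cldn3), proteins of desmosomes and tight junctions, were lower too (-8.43 ± 0.86, adjusted p = 1.68e-12, and -4.64 ± 0.84, adjusted p = 2.09e-05), as was Krt7 (-2.45 ± 0.59, adjusted p = 0.00133). The other 3 called genes of the list were higher in RPC. Cd24a, a surface glycoprotein, had 130 to 780 CPM (median 403) against 61.1 to 632 CPM (median 189) (0.99 ± 0.22 (SE), adjusted p = 0.000661). Prom1 (CD133) and Spint2, an inhibitor of membrane proteases, had means of 11.6 CPM in RPC and 2.49 in KP1, and of 23.2 CPM in RPC and 2.19 in KP1 (2.25 ± 0.55, adjusted p = 0.00152, and 3.26 ± 0.82, adjusted p = 0.00213). The Spint2 medians were 8.34 CPM in RPC, where the highest library had 209 CPM, and 0 in KP1. Cdh1, epithelial cadherin, had 0 counts in every library of both lines, and Epcam had counts in 8 RPC and 16 KP1 libraries. Mesenchymal genes gave 1 call each way of 7 tested: Nov, a matricellular protein also called Ccn3, fell from a mean of 442 to 43.5 CPM (-3.78 ± 0.37, adjusted p = 5.95e-13), and Mmp2, a matrix metalloproteinase, had 17.2 CPM in RPC and 2.73 in KP1 (2.20 ± 0.81, adjusted p = 0.0403), a call lost in 4 of 10 alternatives. Vim, vimentin, had counts in 5 RPC and 16 KP1 libraries and was not tested.

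Among the lineage genes named as called, the calls of Sox11, Sox1, Insm1, St18, Dtx1, Prom1, Spint2 and Mmp2 were lost under at least 1 of the alternatives of scaling, filter, model, block or control, with no change of sign.

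**Figure D1:**
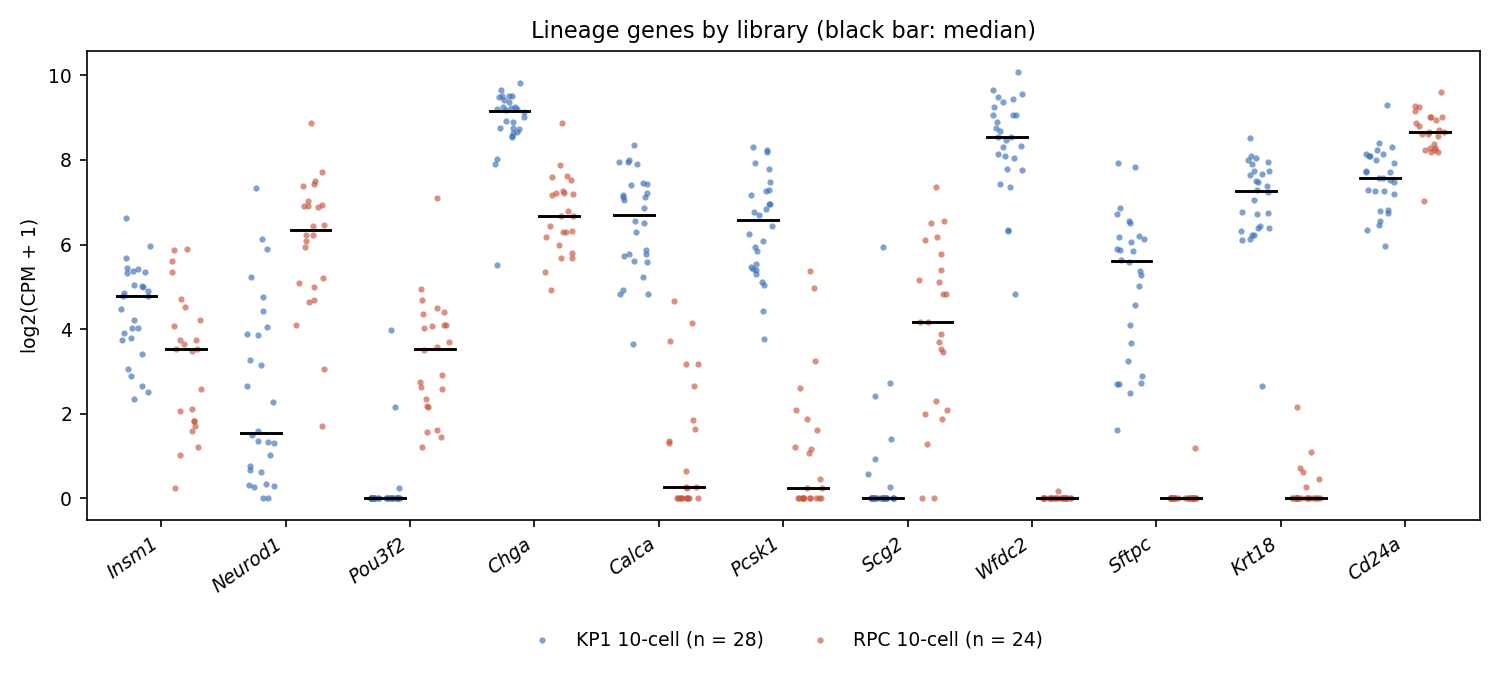
Each point is 1 library of 10 cells, KP1 (n = 28, blue) or RPC (n = 24, red), and the vertical axis is log2(CPM + 1) with the median as a black bar. Wfdc2, Sftpc and Krt18 do not overlap between the lines, Neurod1 is high in nearly all RPC libraries and at 10 CPM or more in 9 of 28 KP1 libraries, and Insm1 overlaps over most of its range.

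Neuronal genes were called more often in the upward direction. Of 182 kept, 89 were tested, and 19 were higher and 11 lower in RPC (median log2 fold change 0.49). As with the lineage lists, a gene that passed the filter only through the line in which it is high had to differ. These counts therefore describe the lists and support no direction. The calls split by role: cytoskeleton genes (8 higher and 2 lower of 30 tested) and adhesion and guidance genes (6 higher of 13) were mostly or all higher among those called, while exocytosis genes had 1 higher and 4 lower and ion-channel genes 2 higher and 5 lower. The balance of calls in these last lists changed with the setting. Exocytosis had 8 higher and 4 lower with limma-voom and 4 of each with DESeq2. Relative to the median of all genes, its median was 0.42 in the main test, 0.46 with limma-voom and 0.40 with DESeq2. Against the 9 KP1 libraries rich in spike-ins, channels had 6 higher and 2 lower of 23 tested. They had 5 and 4 of 14 with limma-voom, and 6 and 5 of 18 with a filter at a mean of 5 CPM. Relative to all genes the channel median was 0.13 in the main test, and 0.67, 0.07 and 0.54 in these settings. Limma-voom and DESeq2 each called 34 neuronal genes higher, but they also called 2032 and 1457 of all genes higher, against 882 in the main test. The 9 KP1 libraries rich in spike-ins gave 27 neuronal genes higher and 6 lower of 114 tested. Against the pools the balance was weaker, with 17 higher and 12 lower of 99 tested and a median of 0.26.

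Of the neuronal cytoskeleton genes 8 were higher and 2 lower of 30 tested. Stmn2, a tubulin-binding phosphoprotein of growing axons (chr3:8509360-8561606, GRCm38), had 220 to 1954 CPM (median 592) in RPC libraries and a single count over the 28 KP1 libraries. The RPC over KP1 ratio of pooled counts was 85619 (95% counting interval 15367 to 3381787), with an edgeR adjusted p of 9.22e-41, and no library of either line overlapped the other. Pool-and-split KP1 controls averaged 3.15 CPM, all of it from the 1 of 20 libraries that had counts. The bulk libraries of KP1, KP2, KP3 and KP5 had 0.0579, 0.919, 0.0264 and 0 CPM. Its paralogs Stmn4 and Stmn3 were also higher (3.28 ± 0.60, adjusted p = 2.15e-05, and 1.07 ± 0.28, adjusted p = 0.00331), and Stmn1, which is tied to proliferation, was not called (-0.17 ± 0.18, adjusted p = 0.559). Gap43, a growth-cone protein, had 3.82 to 104 CPM (median 36.9) in RPC and 0 to 37.2 CPM (median 1.62) in KP1 (2.61 ± 0.60 (SE), adjusted p = 0.000833). Dclk1, a doublecortin-like kinase of microtubules, had 0.265 to 235 CPM (median 23.2) and 0 to 18.1 CPM (median 0.607) (3.59 ± 0.69 (SE), adjusted p = 5.28e-05). Dpysl3 and the neuronal kinesin Kif5c followed (1.58 ± 0.52, adjusted p = 0.0207, and 1.55 ± 0.35, adjusted p = 0.000541). The neurofilament subunits Nefl and Nefm, of the mature axon, were lower in RPC (-2.92 ± 0.68, adjusted p = 0.000934, and -1.92 ± 0.61, adjusted p = 0.0161), and Nefl reached 10 CPM in 6 of 24 RPC and 21 of 28 KP1 libraries. Tubb2b was called higher (4.72 ± 0.68, adjusted p = 1.09e-07), but it shares at least 20% of its 31-base words with Tubb2a, and the summed level of the pair was 0.574 to 264 CPM in RPC (median 74.9) and 3.65 to 203 in KP1 (median 53.8), so the share assigned to Tubb2b is uncertain.

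Of 10 tested RNA-binding genes, 2 were higher and none lower. Elavl2, an Elav-family protein of early neurons, separated the lines without overlap, at 51.9 to 271 CPM (median 142) in RPC and 0 to 39.3 CPM (median 1.68) in KP1 (4.63 ± 0.50 (SE), adjusted p = 2.14e-11). The pools averaged 4.46 CPM, and the bulk libraries of KP1, KP2, KP3 and KP5 had 39.7, 331, 112 and 109 CPM. Among the bulk libraries KP2, KP3 and KP5 lay above KP1. Bulk KP1 itself was far above the KP1 10-cell mean of 4.92 CPM, so bulk levels cannot be placed against the RPC range. Its relative Elavl4 did not pass the test (-0.19 ± 0.41, adjusted p = 0.794). Rbfox3, the neuronal splicing factor NeuN, had means of 20.7 CPM in RPC and 3.06 in KP1 (2.52 ± 0.86, adjusted p = 0.0272), a call lost against the pools and against the 19 spike-in-poor KP1 libraries. In KP1 liver colonies Rbfox3 had means of 181 CPM in nude and 21.2 CPM in F1 mice, whereas Elavl2 had 2.01 and 1.55 CPM. The summed level of the 19 genes kept had medians of 283 CPM in RPC and 93 in KP1 spheroids. It was 239 CPM in nude and 104 CPM in F1 liver colonies.

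All 6 called adhesion and guidance genes were higher, out of 13 tested of 45 kept. Members that passed the filter only through RPC could only be called higher, so this count supports no direction. Ncam1, neural cell adhesion molecule 1, had 9.75 to 209 CPM (median 77.3) in RPC and 2.14 to 113 CPM (median 19.7) in KP1 (1.37 ± 0.35 (SE), adjusted p = 0.00221). The ephrin ligand Efna5 had 8.92 to 126 CPM (median 46.8) and 0 to 42.4 CPM (median 4.73) (2.21 ± 0.50 (SE), adjusted p = 0.000563). Plxna4, a semaphorin receptor, and Sema6d, a transmembrane semaphorin, had counts in 21 and 24 of 24 RPC libraries but in 4 and 6 of 28 KP1 libraries (6.61 ± 0.84, adjusted p = 2.91e-09, and 5.09 ± 0.73, adjusted p = 8.43e-08). Nrxn3, a presynaptic neurexin, and Nrcam were higher as well (4.95 ± 0.77, adjusted p = 7.2e-07, and 2.19 ± 0.71, adjusted p = 0.0184). Against the pool-and-split controls 4 were higher and 2 lower of 16 tested, and the calls of Ncam1, Nrcam and Nrxn3 were lost. The summed level of the 45 genes had medians of 415 CPM in RPC, 160 in KP1 10-cell spheroid libraries and 305 in the pools. In KP1 liver colonies it was 431 CPM in nude and 240 CPM in F1 mice.

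Exocytosis genes gave 1 higher and 4 lower of 22 tested. Snap25, a SNARE of vesicle fusion, had 0.521 to 110 CPM (median 10.2) in RPC and 9.89 to 236 CPM (median 64.7) in KP1 (-2.08 ± 0.44 (SE), adjusted p = 0.000281). The synaptotagmins Syt4 and Syt7, calcium sensors of granule release, were lower (-3.52 ± 0.91, adjusted p = 0.00273, and -3.19 ± 0.69, adjusted p = 0.000327). Napb, beta-SNAP, was the member called higher (2.14 ± 0.45, adjusted p = 0.000253). Syp, synaptophysin, had counts in 23 of 24 RPC and 12 of 28 KP1 libraries and was not tested. The median over tested exocytosis genes was 0.43 against the 10-cell libraries and -0.35 against the pools, so its sign differed between the controls.

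Kcnip1, a potassium-channel interacting protein (chr11:33629339-33993152, GRCm38), had 3.54 to 331 CPM (median 121) in KP1 and a single count in RPC, a KP1 over RPC ratio of 18429 (95% counting interval 3308 to 727902) (edgeR adjusted p = 3.77e-28). Kcnip3, the sodium channel Scn3a and the calcium-channel subunits Cacna1c and Cacnb3 were lower (-2.03, -2.45, -1.88 and -1.59 on the log2 scale, adjusted p from 0.00804 to 0.0275). The calcium-activated potassium channel Kcnn2 and the auxiliary subunit Cacng4 were higher (3.73 ± 0.83, adjusted p = 0.000522, and an adjusted p of 0.0186).

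Among the neuronal genes named as called, the calls of Stmn4, Stmn3, Dpysl3, Kif5c, Nefm, Rbfox3, Ncam1, Nrxn3, Nrcam, Syt4, Napb, Kcnip3, Scn3a, Cacna1c, Cacnb3, Kcnn2 and Cacng4 were lost under at least 1 of the alternatives of scaling, filter, model, block or control, with no change of sign.

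**Figure D2:**
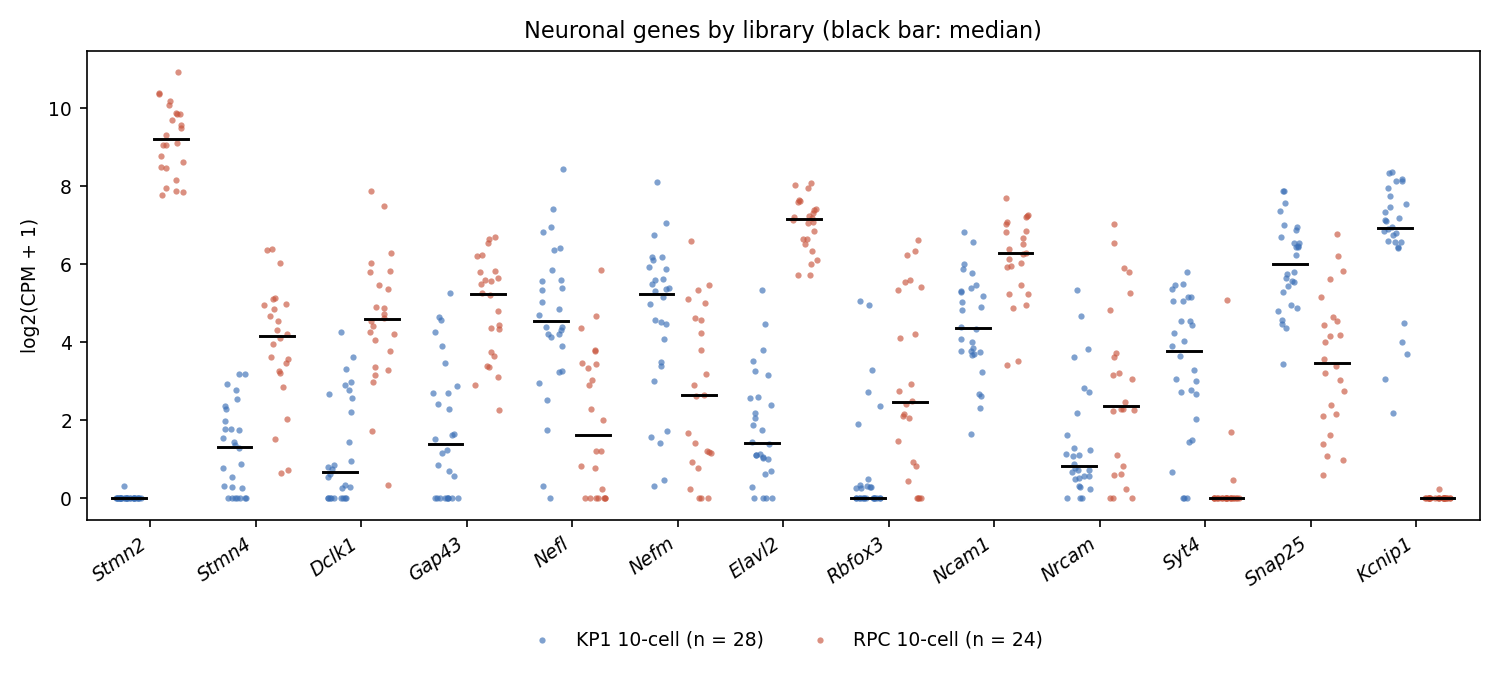
Each point is 1 library of 10 cells, KP1 (n = 28, blue) or RPC (n = 24, red), on a log2(CPM + 1) axis, with the median as a black bar. Stmn2 and Elavl2 are higher in every RPC library, Kcnip1 is at 0 in all RPC libraries but 1, and Nefl, Nefm, Syt4 and Snap25 have lower medians in RPC.

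**Figure D3:**
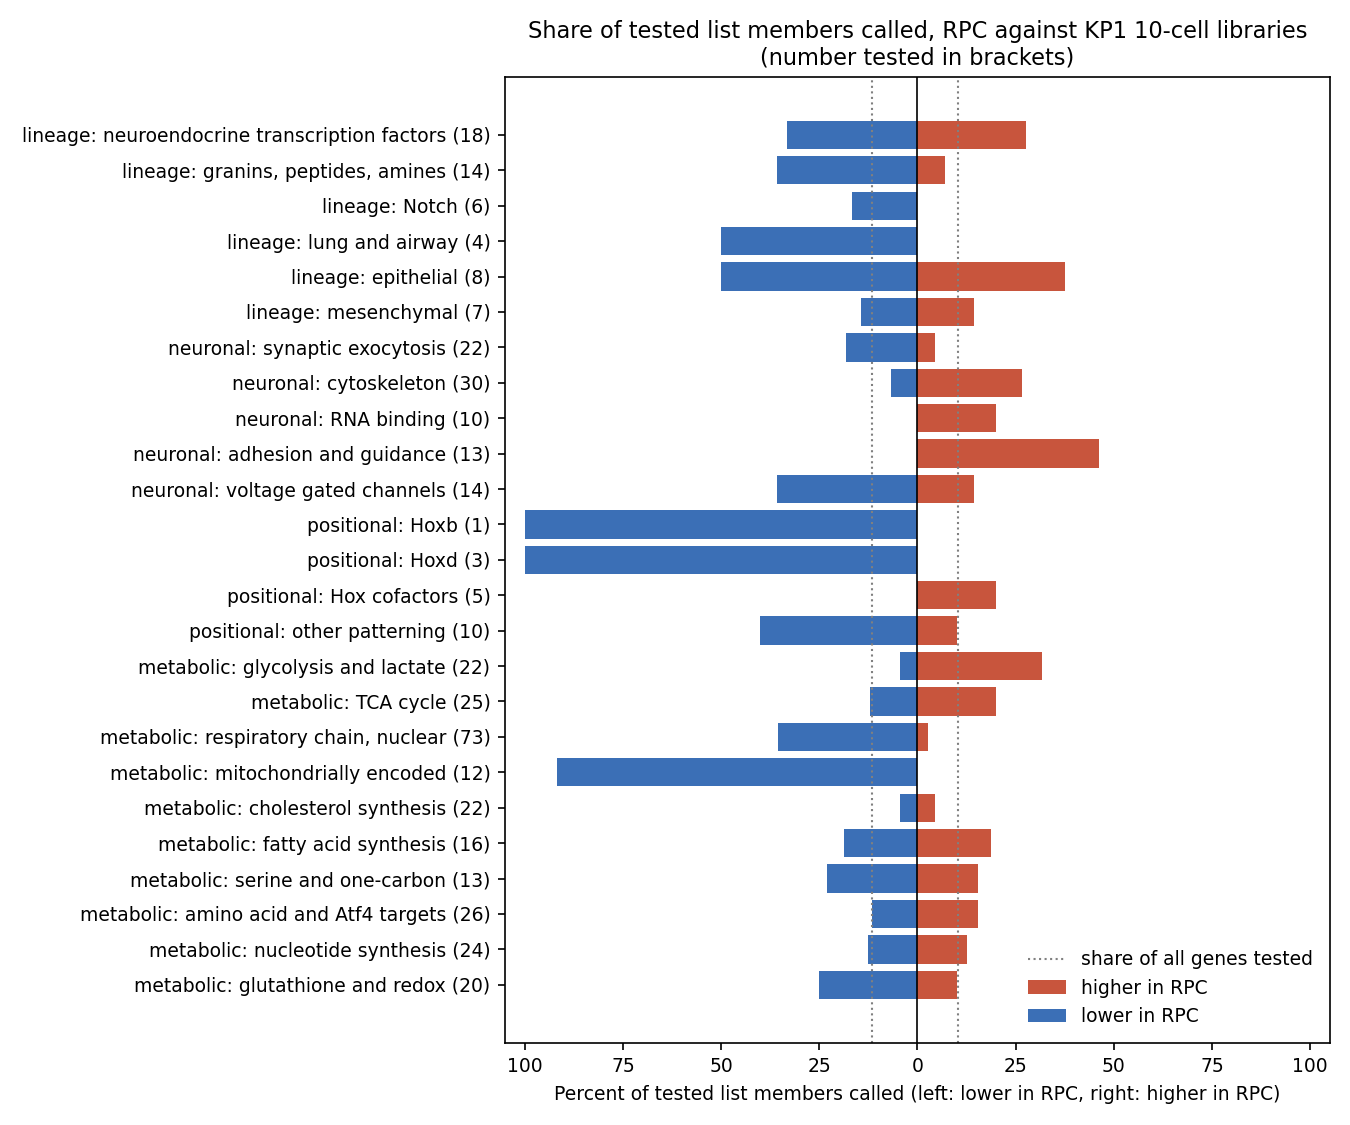
For each list the bar to the right gives the percent of tested members called higher in RPC and the bar to the left the percent called lower, with the number tested in brackets and the shares of all genes tested (10.3% and 11.6%) as dotted lines. The Hox bars rest on 1 and 3 genes, the mitochondrially encoded list stands at 11 of 12 lower, and adhesion and guidance has 6 of 13 higher and none lower.

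Hox genes of the D and B clusters were detected in KP1 and nearly absent from RPC. Of 39 Hox genes, 29 had no count in any RPC library and 16 none in any KP1 library. KP1 libraries held Hoxd and Hoxb transcripts, whose summed levels were 36.5 to 469 CPM (median 259) and 0.942 to 162 CPM (median 29.3), against at most 0.632 and 0.218 CPM in any RPC library. Hoxa and Hoxc sums had medians of 0 in both lines, reaching 15.9 and 2.31 CPM in single KP1 libraries and 0.761 and 3.8 CPM in RPC. Of the 39, 4 Hox genes passed the filter, all through KP1, and all 4 were called lower.

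Hoxd8 had counts in all 28 KP1 libraries, at 18.4 to 348 CPM (median 146), and none in RPC, at least 6113-fold lower (adjusted p = 6.97e-25). Hoxd11 had 2.43 to 215 CPM (median 56.4) in KP1 and counts in 2 RPC libraries, none above 0.632 CPM (-10.41 ± 0.64 (SE), adjusted p = 1.03e-21). Neither overlapped between the lines. Hoxd10 and Hoxb7 had counts in 27 and 25 of 28 KP1 libraries and in none of RPC, at least 933-fold and 800-fold lower. Hoxb7 did not pass the filter against either part of KP1 or the pools, nor Hoxd10 against the spike-in-rich part, so those tests do not cover them. Below the filter, Hoxd9 and Hoxd13 were also detected in one line alone, with counts in 24 and 20 KP1 libraries and none in RPC, at least 485-fold and 388-fold lower. In KP1 liver colonies the Hoxd genes summed to medians of 231 CPM in nude and 235 CPM in F1 mice. In bulk spheroids Hoxd8 was at 275 CPM in KP1, 124.3 in KP2, 170 in KP3 and 0.165 in KP5, and Hoxd11 at 120, 18.7, 52.4 and 0.0329 CPM in KP1, KP2, KP3 and KP5, so both were near 0 in KP5 as in RPC.

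The Hoxd promoters are shown because the 3 genes lie within 25057 bases of each other on chromosome 2 and were near or at 0 in RPC together; none of the 4 motifs searched stands in these windows, so they carry no capitals.
Hoxd11: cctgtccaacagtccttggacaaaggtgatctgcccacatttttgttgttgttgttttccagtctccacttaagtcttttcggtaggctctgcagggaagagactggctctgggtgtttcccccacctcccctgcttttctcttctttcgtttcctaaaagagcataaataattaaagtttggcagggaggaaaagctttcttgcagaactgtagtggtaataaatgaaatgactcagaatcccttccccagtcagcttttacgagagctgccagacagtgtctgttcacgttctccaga
Hoxd10: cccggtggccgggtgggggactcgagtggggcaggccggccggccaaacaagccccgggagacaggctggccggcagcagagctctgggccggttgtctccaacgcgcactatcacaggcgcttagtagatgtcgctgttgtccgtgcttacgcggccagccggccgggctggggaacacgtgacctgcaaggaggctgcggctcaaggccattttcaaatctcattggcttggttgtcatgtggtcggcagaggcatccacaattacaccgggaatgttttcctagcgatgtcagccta
Hoxd8: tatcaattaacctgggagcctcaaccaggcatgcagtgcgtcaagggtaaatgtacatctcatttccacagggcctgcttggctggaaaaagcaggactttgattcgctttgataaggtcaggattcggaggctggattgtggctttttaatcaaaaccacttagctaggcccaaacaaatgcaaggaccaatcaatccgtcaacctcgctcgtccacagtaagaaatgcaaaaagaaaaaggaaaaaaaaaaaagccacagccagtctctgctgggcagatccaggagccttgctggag
They lie at chr2:74679308-74679607, plus strand, at chr2:74691641-74691940, plus strand and at chr2:74704365-74704664, plus strand on GRCm38.p6, from RefSeq.

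Among Hox cofactors, Pbx3, a TALE-class partner of Hox proteins, was higher in RPC (1.70 ± 0.56 (SE), adjusted p = 0.0219), a call lost against the 19 spike-in-poor KP1 libraries, while Pknox1 and Meis3 did not pass the test (-0.85 ± 0.62, adjusted p = 0.354, and 0.26 ± 0.55, adjusted p = 0.781). Of 10 other patterning factors tested, 4 were lower and 1 higher. Pax6, a paired-box factor of eye, brain and endocrine pancreas, had 0 to 6.76 CPM (median 1.02) in RPC and 0 to 337 CPM (median 15.1) in KP1 (-4.66 ± 0.71 (SE), adjusted p = 5.25e-07). The Iroquois factors Irx2 and Irx1 were lower (-2.39 ± 0.48, adjusted p = 0.000104, and -1.77 ± 0.55, adjusted p = 0.0151), and En1, a midbrain homeobox factor, had counts in 1 RPC and 28 KP1 libraries (-6.41 ± 0.65, adjusted p = 1.91e-12). Dlx6, a distal-less factor of forebrain interneurons and branchial arches, had 0.132 to 74.9 CPM (median 13.7) in RPC and 0 to 9.82 CPM (median 0.1) in KP1 (4.21 ± 0.73 (SE), adjusted p = 8.52e-06). The Irx1 call was lost against the 9 KP1 libraries rich in spike-ins and against the pools, where En1 did not pass the filter; En1 was tested in 6 of 14 alternatives and called in each. With the 9 KP1 libraries rich in spike-ins as the only controls, 8 positional genes were higher and 4 lower of 25 tested. The main test had 2 higher and 8 lower of 19. The genes tested differed, with 2 Hox genes in place of 4 and 15 other patterning factors in place of 10.

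**Figure D4:**
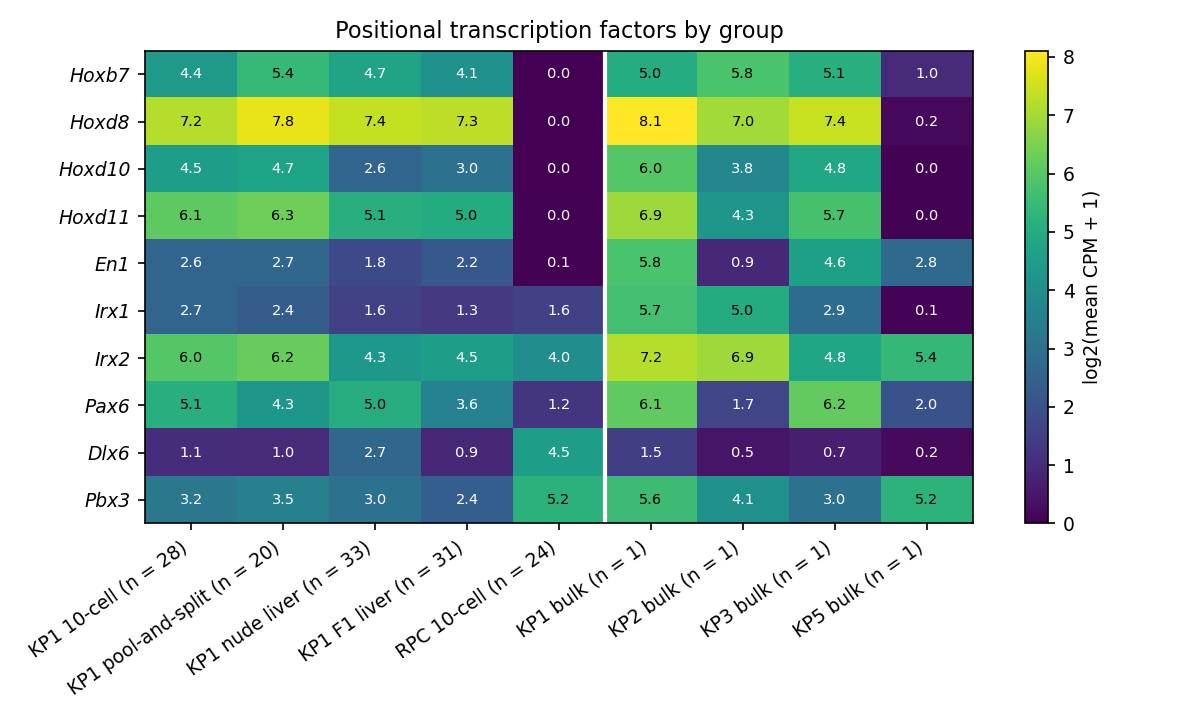
Colour and number give log2(mean CPM + 1) for 10 positional factors in 5 groups of 10-cell or pooled libraries and, right of the white line, in 1 bulk library of each line. The 4 Hox rows are near or at 0 in RPC and low in KP5 bulk, and present in every KP1 group and in KP2 and KP3 bulk.

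Metabolic genes were called nearly at the background in the upward direction and above it downward, with a split by pathway. Of 294 kept, 253 were tested, and 29 were higher and 59 lower (median log2 fold change -0.13). Among called genes, those of glycolysis were mostly higher and those of the respiratory chain, nuclear and mitochondrial, mostly lower. The balance turned with the control: against the pools, 39 metabolic genes were higher and 29 lower.

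Of 22 tested glycolysis and lactate genes, 7 were higher and 1 lower (median 0.75). The summed level of the 26 genes kept was 5903 to 26627 CPM in RPC (median 12770) and 3154 to 22971 in KP1 (median 6233). Pgk1, phosphoglycerate kinase, an X-linked gene, had 1029 to 6100 CPM (median 2306) in RPC and 16.9 to 1615 CPM (median 330) in KP1 (2.24 ± 0.26 (SE), adjusted p = 2.65e-10). Aldoa (aldolase A), Ldha (lactate dehydrogenase A) and Eno1 (enolase 1) followed (1.65, 1.05 and 1.36 on the log2 scale, adjusted p from 2.58e-05 to 0.00808). Pkm, pyruvate kinase, and Gpi1, glucose-6-phosphate isomerase, had smaller differences (0.88 ± 0.22, adjusted p = 0.00161, and 0.76 ± 0.22, adjusted p = 0.00953), and Eno2, the neuronal enolase, was higher from a low KP1 level (2.11 ± 0.68, adjusted p = 0.019). Against them stood the glucose transporter Slc2a1 (GLUT1), with 0 to 148 CPM (median 27.4) in RPC and 119 to 2738 CPM (median 512) in KP1 (-4.29 ± 0.43 (SE), adjusted p = 9.93e-13). Slc2a1 lies at chr4:119108711-119137983 (GRCm38), shortly before the stretch of chromosome 4 that was set aside and whose genes were lower in RPC, and whether its level belongs with that stretch was not tested. Gapdh and Tpi1 did not pass the test (0.22 ± 0.22, adjusted p = 0.507, and 0.52 ± 0.21, adjusted p = 0.0668). With the 9 spike-in-rich KP1 libraries alone 2 glycolysis genes were higher, with the other 19 libraries 9, and with the pools 10. Pgk1 and Eno1 have close copies, but the sums over all copies had RPC and KP1 medians of 2306 and 330 CPM for Pgk1 and of 337 and 93.8 CPM for Eno1.

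In the list of the tricarboxylic acid cycle and linked enzymes, which are not all of the cycle itself, 5 of 25 tested genes were higher and 3 lower. Idh1, Pdha1, Fh1 and Ogdh rose by 2.04, 1.39, 1.34 and 1.57 on the log2 scale, and Acly, which makes cytosolic acetyl-CoA, had 65.1 to 344 CPM (median 178) in RPC and 2.17 to 296 CPM (median 66) in KP1 (1.14 ± 0.28 (SE), adjusted p = 0.00153). Sdhb, a subunit of succinate dehydrogenase, was lower, at 17.4 to 410 CPM (median 104) in RPC and 161 to 897 CPM (median 389) in KP1 (-1.95 ± 0.26 (SE), adjusted p = 1.6e-08), as were Dlat and Idh3b (-1.44 and -1.09).

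Of 73 tested nuclear genes of the respiratory chain, 26 were lower and 2 higher (median -0.35). Ndufa12, of complex I, had 13.8 to 211 CPM (median 74.2) in RPC and 125 to 521 CPM (median 265) in KP1 (-2.06 ± 0.24 (SE), adjusted p = 1.84e-10). Cox8a of complex IV and the ATP synthase subunits Atp5l and Atp5g2 were lower (-1.62 ± 0.26, adjusted p = 1.25e-06, -1.55 ± 0.22, adjusted p = 8.25e-08, and -1.65 ± 0.31, adjusted p = 3.31e-05), and Cox7a2l and Atp5o were higher (0.84 and 0.59). Cox4i1 and Uqcrh, abundant subunits, did not pass the test. The summed level was 25906 to 48988 CPM in RPC (median 37495) and 23075 to 57603 in KP1 10-cell libraries (median 44381), but the KP1 pools had a median of 37361 CPM. Against the pools 5 were lower and 9 higher, with a median of 0.09, so the lower level was found with the 10-cell controls and not with the pools. Mitochondrially encoded transcripts were lower for 11 of 12 tested (median -1.42), and against the pools for 7, with a median of -0.91. They made up 0.373% to 5.7% of gene counts in RPC (median 3.19%) and 1.81% to 8.7% in KP1 (median 5.36%). mt-Nd3 had 37.9 to 721 CPM (median 329) in RPC and 868 to 4291 CPM (median 1532) in KP1, without overlap (-2.77 ± 0.28 (SE), adjusted p = 1.47e-12), and mt-Nd2 and mt-Nd4 were lower (-2.52 ± 0.27, adjusted p = 1.24e-11, and -1.53 ± 0.25, adjusted p = 2.33e-06). mt-Co1 was not called (-0.13 ± 0.25, adjusted p = 0.773).

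Lipid genes moved each way. Fasn, fatty acid synthase, had 208 to 1520 CPM (median 587) in RPC and 20.2 to 554 CPM (median 218) in KP1 (1.37 ± 0.24 (SE), adjusted p = 9.83e-06), and Acaca, acetyl-CoA carboxylase, and Acsl3, an acyl-CoA synthetase, were higher (2.07 ± 0.40, adjusted p = 5.17e-05, and 2.55 ± 0.43, adjusted p = 4.79e-06). Elovl7, Acsl1 and Fabp5 were lower (-3.71, -2.13 and -0.71). Of 22 tested cholesterol synthesis genes 1 was called each way, with Tm7sf2, a sterol reductase, higher (2.15 ± 0.69, adjusted p = 0.0176).

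In serine and one-carbon metabolism, Phgdh and Shmt2, enzymes of serine synthesis and use, were lower (-1.12 ± 0.33, adjusted p = 0.0103, and -1.38 ± 0.33, adjusted p = 0.00119), as was Tyms, thymidylate synthase (-0.75 ± 0.21, adjusted p = 0.00589), and Mat2a was higher (0.89 ± 0.28, adjusted p = 0.0168). Ahcy, S-adenosylhomocysteine hydrolase, was called higher (3.19 ± 0.47 (SE), adjusted p = 1.65e-07), but 76.5% of its 31-base words also stand in Gm4737, which had means of 87.6 CPM in KP1 and 0.17 in RPC. The sum over Ahcy and its copies was 7.43 to 383 CPM in RPC (median 102) and 1.66 to 456 in KP1 (median 66.6), so this call is uncertain. Of the nucleotide genes, Impdh1, of guanine synthesis, was lower (-3.18 ± 0.48, adjusted p = 4.11e-07) and Gmps and Prps1 were higher (1.22 ± 0.31, adjusted p = 0.00238, and 1.43 ± 0.50, adjusted p = 0.0312). Nme2 was called higher (0.80 ± 0.24, adjusted p = 0.00997), and its sum with its copy had medians of 2303 CPM in RPC and 2174 in KP1, so this call is uncertain too. Redox genes had 5 lower and 2 higher of 20 tested. Srxn1, sulfiredoxin, had counts in 3 RPC and 27 KP1 libraries (-8.00 ± 0.79 (SE), adjusted p = 4.68e-13), Gstm1 and Gpx1 were lower (-2.91 ± 0.60, adjusted p = 0.000185, and -2.08 ± 0.40, adjusted p = 5.94e-05), and Sod1, cytosolic superoxide dismutase, was higher at 1641 to 4193 CPM (median 2624) against 774 to 2140 CPM (median 1289) (0.90 ± 0.20 (SE), adjusted p = 0.000348). Of amino acid and stress-response genes, Trib3, Ddit3 and the transporter Slc38a2 were lower (-2.02, -1.63 and -1.66) and Slc1a4, Asl, Bcat1 and Slc7a5 higher (1.04, 1.73, 0.91 and 1.75), while Asns was not called (-0.50 ± 0.25, adjusted p = 0.143).

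Among the metabolic genes named as called, the calls of Aldoa, Ldha, Eno1, Pkm, Gpi1, Eno2, Idh1, Pdha1, Fh1, Ogdh, Acly, Dlat, Idh3b, Cox7a2l, Atp5o, Acaca, Acsl1, Fabp5, Tm7sf2, Phgdh, Tyms, Mat2a, Prps1, Nme2, Sod1, Trib3, Slc1a4, Asl, Bcat1 and Slc7a5 were lost under at least 1 of the alternatives of scaling, filter, model, block or control, with no change of sign.

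**Figure D5:**
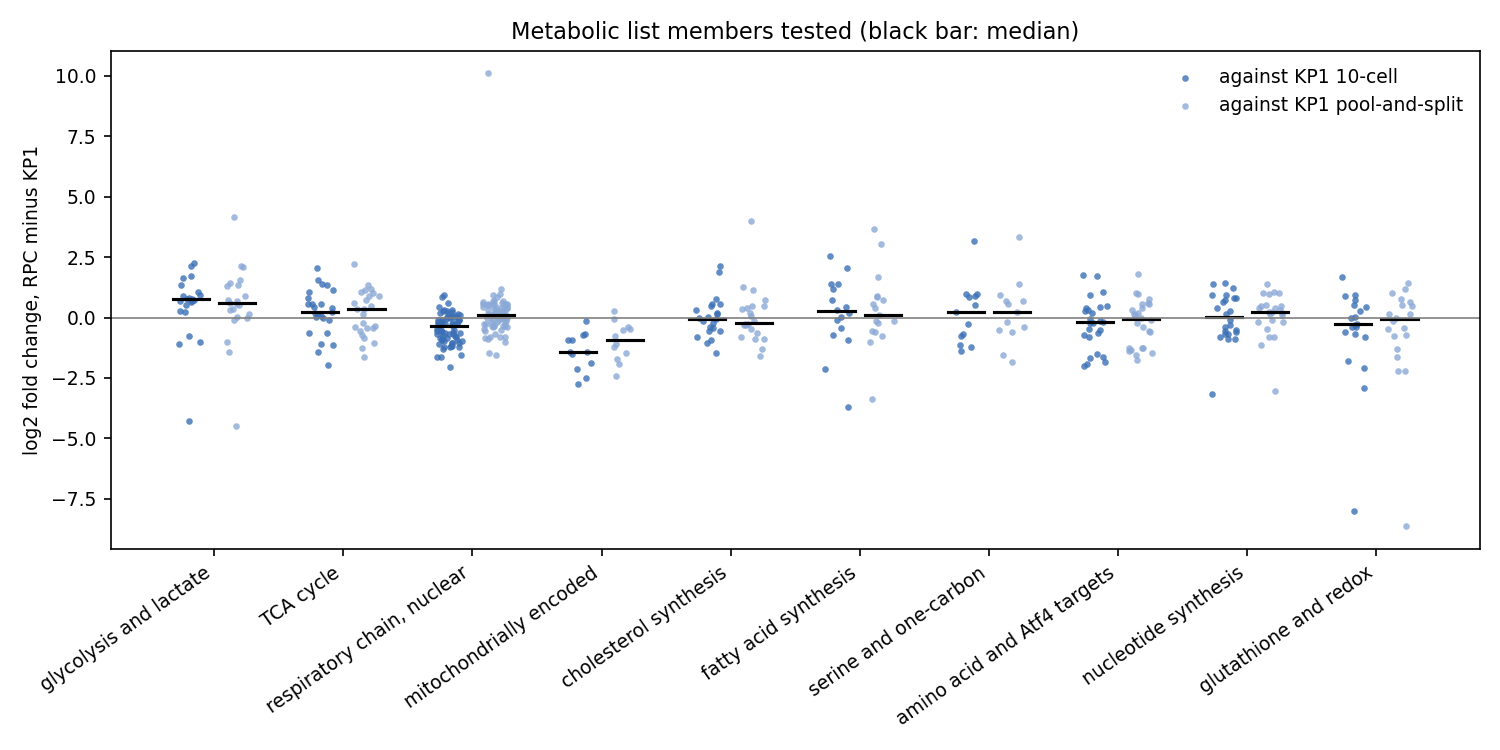
Each point is 1 tested gene of a metabolic list, and the vertical axis is its log2 fold change, RPC minus KP1, against the 28 KP1 10-cell libraries (dark blue) or the 20 pool-and-split controls (light blue), with medians as black bars. The glycolysis median is above 0 and the mitochondrially encoded median below 0 with either control, and the nuclear respiratory median is -0.35 with one and 0.09 with the other.

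The genes of the labelled alleles gave little at this depth. Crebbp had 0.132 to 138 CPM (median 15.7) in RPC and 5.27 to 131 CPM (median 26.7) in KP1 (-1.27 ± 0.46 (SE), adjusted p = 0.0351), a call lost in 5 of 14 alternatives, and the table does not show which exons the reads cover. Ep300, its close relative, was also lower (-1.36 ± 0.45, adjusted p = 0.0221), and Mdm2, a p53 target and inhibitor, likewise (-1.30 ± 0.47, adjusted p = 0.0372). The Ep300 call was lost in 2 of 14 alternatives and that of Mdm2 in 4, both among them against the spike-in-rich KP1 libraries and against the pools. Against the pools the Ep300 change was -0.25 and that of Mdm2 -0.38 on the log2 scale. Ep300, Mdm2, Dpysl3, Kif5c, Stmn3, Irx1, En1, Pkm and Gpi1 fall outside the rule for named genes and were picked after their values were seen. Rb1 and Trp53, deleted in both labels, still had reads in both lines and did not differ beyond the threshold (-0.21 ± 0.47, adjusted p = 0.791, and 0.12 ± 0.63, adjusted p = 0.922). Rbl2 had counts in 11 RPC and 7 KP1 libraries and was not tested.

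Outside the lists, 8 genes in each direction had the smallest adjusted p. Of the 8 higher genes, 6 are X-linked: Rps6ka6, Foxr2, Xlr3a, Xlr3b, Bex4 and Rhox4a2. Rps6ka6, the kinase RSK4, had 23 to 496 CPM (median 85.9) in RPC and counts in 1 KP1 library (10.78 ± 0.56 (SE), adjusted p = 3.44e-25). Foxr2, a forkhead factor, had 7.46 to 366 CPM (median 48.1) in RPC and 3 counts over the KP1 libraries, a ratio of 2985 (95% counting interval 1021 to 14473). Rhox4a2, of a reproductive homeobox cluster whose copies share reads, had counts in all 24 RPC libraries and none in KP1, but the sum with its 7 copies had means of 95 CPM in RPC and 0.0472 in KP1. Xlr3a and Xlr3b are such copies too, and with Xlr3c their sum had means of 140 CPM in RPC and 0.0756 in KP1. Cstf2t, a testis form of a cleavage factor on chromosome 19, was higher (8.61 ± 0.65, adjusted p = 8.66e-18). Nupr1, a stress-response chromatin protein, had 70.2 to 1005 CPM (median 484) in KP1 and counts in 9 RPC libraries (-9.98 ± 0.68 (SE), adjusted p = 8.62e-20). Xdh, xanthine dehydrogenase, and Stox2 each had 1 count in RPC, with KP1 over RPC ratios of 4442 (95% counting interval 797 to 175431) and 2332 (95% counting interval 419 to 92105), and Ccdc167 counts in 4 RPC libraries. Svbp, Ppih and Minos1 lie on chromosome 4 outside the stretch set aside, Svbp and Ppih just before it, and were lower without overlap (-5.03, -3.44 and -3.27). Rps3a1 and Rps2-ps6 complete the 16 and are uncertain: the sum of Rps3a1 with its 3 copies was 3096 to 7737 CPM in RPC and 3426 to 9872 in KP1, and Rps2-ps6, named as a pseudogene though typed as protein-coding, shares words with 31 other genes.

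Some genes that separate RPC from KP1 also separate the other tumour lines from KP1. Of 357 genes at least 4-fold lower in RPC with at least 5 CPM in bulk KP1, 23.8% were at least 4-fold below bulk KP1 in KP2, 5.04% in KP3 and 23.5% in KP5, against 2.8%, 0.518% and 3.69% of all tested genes with that level. Of the genes at least 4-fold higher in RPC, 7.25%, 4.91% and 8.93% were at least 4-fold above bulk KP1 in the 3 lines, against 0.794%, 0.343% and 0.966%. They also lay at least 4-fold below bulk KP1 in 6.6%, 1.26% and 9.12%, against 2.8%, 0.518% and 3.69% of all tested genes. The upward shares are over 345, 346 and 347 genes with 5 CPM in either library, and the downward shares over 318 with 5 CPM in bulk KP1. The bulk values share the KP1 library as a reference and have no replicate, so the shares are a description.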

How the data were processed

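The authors deposited a table of expected counts per gene, estimated with RSEM and Bowtie2 per the submitters' processing notes, which also name the builds GRCm38 and GRCh38.p12; versions are not given in the sources used here. Per the labels' protocols, groups of 10 cells were taken by laser capture from cryosections, amplified by poly(A) PCR and sequenced from Nextera XT libraries. The table holds 31581 genes and 92 ERCC spike-ins, which were left out of library sizes and tests; RSEM divides reads among similar genes, so close copies are uncertain. The deposited estimated counts (10.5% of values were not whole) were rounded. Genes were filtered with filterByExpr, scaled by TMM and tested with edgeR 4.0.16 in R 4.3.3 (robust quasi-likelihood F test, Benjamini-Hochberg adjusted over 8600 genes, called at 0.05); SE is the absolute log2 fold change over the root of F. Levels are CPM, counts scaled to the same gene total in every library. On data simulated for this comparison over 8600 genes, the test recovered 16.4% of genes changed 2-fold, 51.6% at 4-fold and 87.3% at 8-fold, with 1 false call. The simulation drew negative binomial counts with the spread fitted by the same model and no split among the KP1 libraries. Its false calls therefore do not measure those in the real data. A pair of libraries deposited more than once was not found: the smallest chi-square per degree of freedom was 78.4 in KP1 and 29.1 in RPC. Counting intervals (Poisson, 95%) and floors of 3 counts cover counting error alone, since PCR reads without molecular identifiers are not independent molecules. Named genes were, in each list, up to 5 called members a direction with the largest change among those averaging 10 CPM or more in the higher line and detected in 75% or more of its libraries, the 8 genes a direction outside the lists with the smallest adjusted p, and preset markers. Copies are other genes that hold at least 20% of the 31-base words of a gene's transcript. Alternatives used RLE and TMMwsp scaling, other filters, limma-voom 3.58.1, DESeq2 1.42.0, thinned counts, a replicate block and other sets of KP1 libraries. The members and lists were chosen with earlier results of these data known. Promoters matched 6627 of 8367 tested genes by symbol. A few list members count in the totals but are not reported here by name.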

Additional observations from a re-analysis of the deposited data

How the results depend on the processing

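Of 140 named genes called, 79 kept their call and direction in every alternative that tested them (72 were tested in all 14), 61 lost the call in at least 1, and 0 reversed; 10 were not tested in at least 1. Without a filter on low counts, 3524 genes were higher and 2591 lower in RPC, with 38 and 42 lineage, 54 and 22 neuronal, 16 and 34 positional and 53 and 66 metabolic genes. Limma-voom called 2032 genes higher, with 34 neuronal genes higher and 16 lower, 6 and 8 positional and 52 and 68 metabolic, and DESeq2 1457, with 34 and 13, 4 and 8, and 46 and 57. The median log2 fold change over all genes was 0.16 with RLE scaling, 0.44 with limma-voom, 0.19 with DESeq2 and 0.41 with the block, against 0.01. With the 9 KP1 libraries of at least 0.1% ERCC as controls, 27 neuronal genes were higher and 6 lower of 114 tested. In that setting 8 positional genes were higher and 4 lower of 25 tested, against 19 tested in the comparison reported. With the pool-and-split libraries as controls, 17 neuronal genes were higher and 12 lower of 99 tested. In the same setting 4 positional genes were higher and 5 lower of 18, and 39 metabolic genes were higher and 29 lower of 255. The calls against these controls shared 1056 of 1785 and 1037 of 1557 genes with the comparison reported, and those against the other 19 KP1 libraries 1383 of 1614. The cause of these differences was not tested. With the replicate number as a block, 1256 genes were higher and 763 lower, 4 positional genes among the higher; the same 48 libraries without the block, an alternative chosen after seeing the data, gave 854 and 917. The numbers did not pair the samples: same-numbered deviations had a median correlation of -0.0013, 1 of 24 pairs was over 0.1, and 2 of 24 libraries correlated best with their own number. Leaving out the least similar library of each line gave 862 higher and 1012 lower. Thinned to the lowest gene total, the libraries gave 1820 calls, 1775 of them shared; what limits the detection of small changes was not tested.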

Other observations

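Genes called in RPC were unevenly spread over the chromosomes, a description made after the values were seen, outside pseudogenes and the stretch of chromosome 4. Of 298 tested genes on the X chromosome, 25.5% were higher and 7.05% lower, and of 701 on chromosome 11, 19.5% and 4.56%, against 10.2% and 11.1% of all 8367. Chromosome 16 had 14.1% higher and 6.14% lower of 277, chromosome 2 had 14.5% and 11.1% of 737, and on the Y chromosome 4 of 6 genes were higher and 0 lower; the labels give no sex. In the other direction, chromosome 10 had 5.68% higher and 18.1% lower of 387, and the remainder of chromosome 4 had 8.37% and 18.4% of 526. Copy number was not measured.

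Imprinted genes, picked after their values were seen, differed in both directions. Of 10 tested, 2 were higher and 3 lower. Nnat, neuronatin, and Snrpn, a spliceosomal protein gene, were higher in RPC by 4.38 ± 0.35 (SE) and 5.05 ± 0.73 (SE) on the log2 scale. Grb10, an adaptor that restrains insulin and growth-factor receptors, and Gnas, the stimulatory G-protein alpha subunit, were lower, at -7.74 ± 0.69 (SE) and -2.86 ± 0.21 (SE). Igf2, insulin-like growth factor 2, had 1 count in RPC, a KP1 over RPC ratio of 1787 (95% counting interval 321 to 70595).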
